A study of Mus musculus with 8 samples.

Results

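Coagulation and fibrinolysis genes were examined in the livers of mice that lacked FoxO1 in myeloid cells. The set was given as 32 gene symbols, which cover the clotting factors, the fibrinogen chains, the inhibitors that restrain them, the enzymes that dissolve fibrin and the vitamin K enzymes. Of these, 31 had a row among the 46517 genes counted, and all 31 passed the filter that left 13278 genes to test. Male C57BL/6 mice were compared in a single contrast of 4 MøFoxO1-KO with 4 WT littermates. All 8 mice carried FoxO1 alleles flanked by loxP sites, and the MøFoxO1-KO mice alone also carried Cre recombinase driven by the Lyz2 promoter, which is active in macrophages and other myeloid cells throughout the body. Both groups started a NASH diet, which induces steatohepatitis, at 6 weeks of age, stayed on it for 25 weeks, and were sampled at 31 weeks after a fast of 16 hours.

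Blood clots when tissue factor on exposed cells binds factor VII and sets off a chain of proteases that ends in thrombin, which turns soluble fibrinogen into fibrin. Antithrombin, the protein C pathway and other inhibitors limit the chain, and plasmin dissolves the clot. Hepatocytes make most of the circulating factors and inhibitors, whereas endothelial and other cells supply factor VIII, von Willebrand factor, thrombomodulin and the plasminogen activators.

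Polyadenylated RNA of whole liver was sequenced, and the total counts per mouse lay between 15253218 and 18025481. Normalized counts are counts scaled by edgeR's TMM factors, and WT values are listed in the order of replicates 22, 23, 24 and 25 and MøFoxO1-KO values in the order of replicates 26, 27, 28 and 29. Genes with an absolute log2 fold change over 1.5 and a Benjamini-Hochberg adjusted P under 0.05 count as called, and SE is the standard error of a log2 fold change. Foxo1 itself had 395, 459, 303 and 459 normalized counts in WT mice and 429, 302, 416 and 289.9 in MøFoxO1-KO mice, which overlapped (edgeR, log2 fold change -0.17, Benjamini-Hochberg adjusted P = 0.686). Whole liver holds the Foxo1 transcripts of all its cells, so these values do not measure deletion in myeloid cells. In RNA of a whole tissue, fewer cells of a type and less RNA per cell cannot be told apart.

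Liver-made members had slightly higher means in MøFoxO1-KO mice, and no member was called. Their median log2 fold change of 0.30 equalled that of hepatocyte marker genes. The members were also taken relative to the summed markers of the same mouse, a ratio chosen after the data were seen. The median log2 difference of the liver-made members was then -0.03, or -0.20 without Alb in the sum and 0.05 without Apoa1. Its sign thus depended on the markers summed. The called share was 0 of 31 members, beside 0.188% of all tested genes. Without the limit on the fold change, 0 members passed the adjusted P (edgeR, Benjamini-Hochberg), beside 0.294% of tested genes, and at an adjusted P under 0.1 F10 alone passed, beside 1.04%. At an unadjusted P under 0.05, 12 of the 31 members stood out, 11 with higher and 1 with lower means in MøFoxO1-KO mice, where 16.7% of all tested genes did (8.65% higher and 8.06% lower). These 12 were F2, F7, F10, F11, Fgb, Fgg, Serpinf2, Proc, Kng1, Cpb2 and Vkorc1 on the higher side and Plat on the lower side. Plat had at most 27 counts in any mouse and passed the filter through its WT counts, and with 10 counts required in every mouse it was not tested and 0 members were lower. In 24 of the 31 members the log2 fold change was above 0, beside 48.3% of tested genes. The median log2 fold change was 0.24 over the members and -0.01 over all tested genes.

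For 7 members, F2, F7, F10, Serpinc1, Proc, Kng1 and Vkorc1, the lowest MøFoxO1-KO mouse exceeded the highest WT mouse, and for 0 members the reverse held. Over all tested genes the groups were separate in 9.71%, 5.0% with MøFoxO1-KO higher and 4.71% with it lower. For such a gene the exact two-sided permutation test gives P = 0.0286, the smallest that 4 mice against 4 allow.

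**Figure D1:**
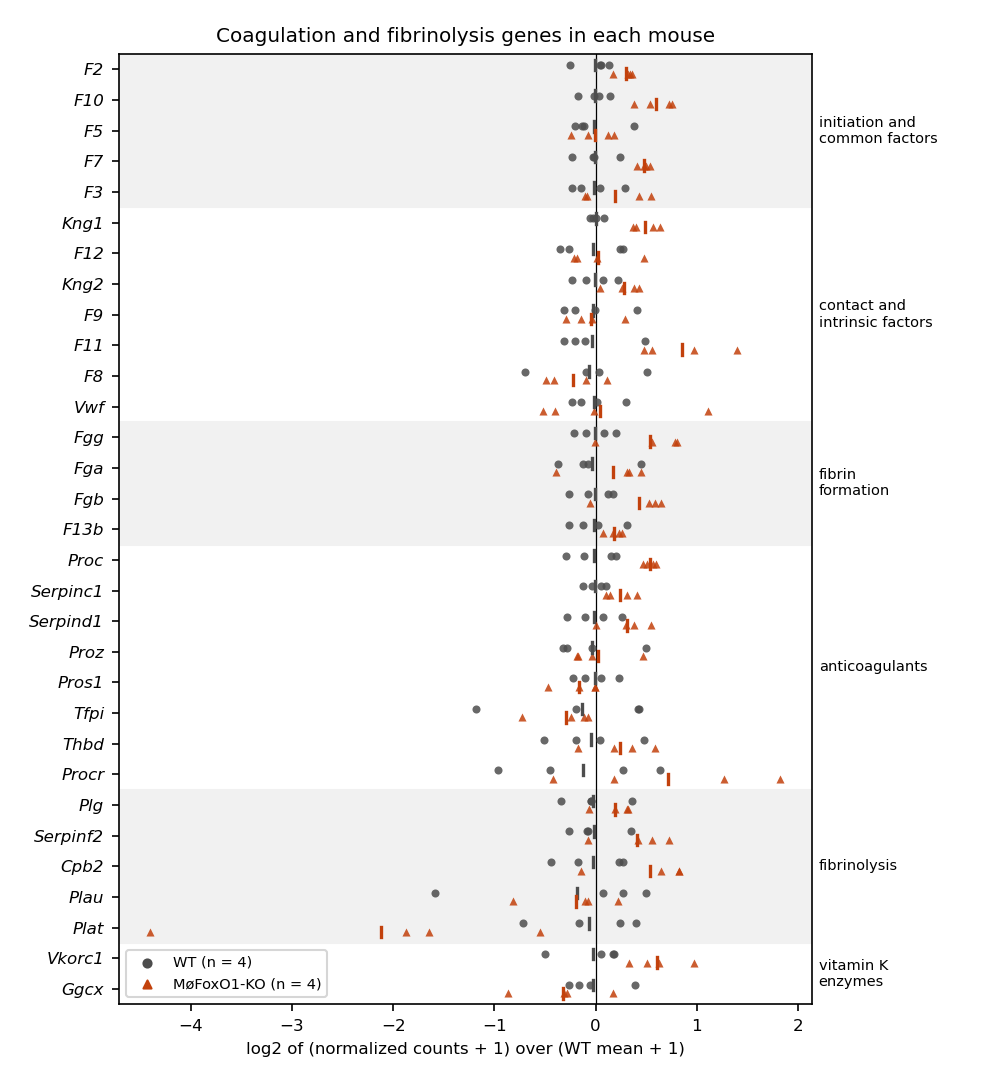
Normalized counts of the 31 members in each mouse, as the log2 of (normalized counts + 1) over (WT mean + 1), grouped by role; circles are WT mice, triangles are MøFoxO1-KO mice and short vertical bars are group means. The MøFoxO1-KO mice of F10, F7, Proc, Kng1 and Vkorc1 lie to the right of every WT mouse, and Plat is the member farthest to the left.

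The test used set the number of members that passed. DESeq2, a Wald test on the same counts, gave 5 members an adjusted P under 0.05, all higher in MøFoxO1-KO mice, beside 4.02% of its tested genes (2.25% higher). They were F7, F10, F11, Proc and Kng1, none of which exceeded the fold change limit, which 1.22% of tested genes passed together with the adjusted P. limma-voom gave 0 members an adjusted P under 0.05, beside 0.181% of tested genes. At an unadjusted P under 0.05 it gave 11 members, 10 higher and 1 lower, beside 16.1% of tested genes (8.47% higher and 7.61% lower). F7, F10, F11, Fgg, Proc, Kng1 and Vkorc1 had an unadjusted P under 0.05 in all 18 settings run, the edgeR test described and 17 alternatives. The same held for 6.33% of the 11756 genes tested in every setting, 2.7% with higher means in MøFoxO1-KO mice.

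Per kilobase of exon, the members spanned more than 3 orders of magnitude. Fgg, which encodes the fibrinogen gamma chain, led in both groups with 867 ± 109 FPKM in WT mice and 1287 ± 300.4 FPKM in MøFoxO1-KO mice (SD, n = 4). Plg, Fga, Fgb and Kng1 followed in WT mice at 673, 648, 556 and 541 FPKM, with standard deviations of 138, 164, 75.2 and 22.8 FPKM, so that their order among themselves is not resolved by 4 mice. Proc and F2 came next in both groups. From Serpinc1 at 235 FPKM to Ggcx at 9.73 FPKM, the remaining liver-made members and the vitamin K enzymes filled the middle of the range in WT mice. The order depends on summed exon length, which was 8546 bases for Serpinc1 and 1566 for Proc. Their mean normalized counts in WT mice were 32997 and 10151. The 8 members of endothelial or other cells were the 8 lowest, from F3 at 1.66 ± 0.277 FPKM (SD, n = 4) to Vwf at 0.453 ± 0.0763 FPKM (SD, n = 4) in WT mice. Together the 31 members held 1.78 ± 0.0751% of all counts in WT mice and 2.04 ± 0.179% in MøFoxO1-KO mice (SD, n = 4), which overlapped (exact permutation test, two-sided, P = 0.0857).

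**Figure D2:**
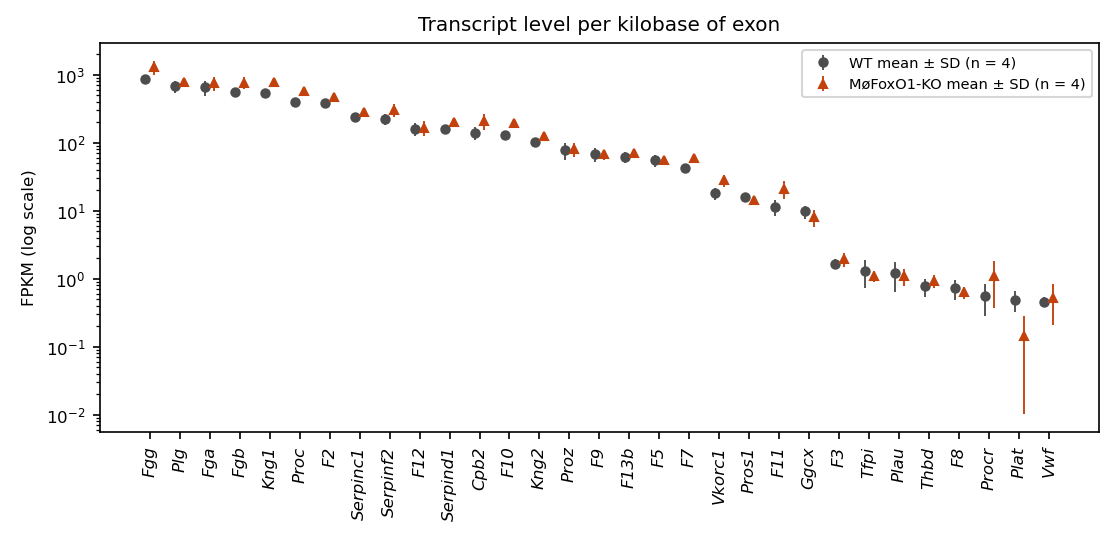
Mean level of each member per kilobase of exon (FPKM, log scale) in order of the WT mean; circles are WT mice, triangles are MøFoxO1-KO mice and bars are SD over 4 mice. Fgg is highest in both groups, and the 8 members from F3 to Vwf lie below every other member in WT mice.

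Fibrinogen is a hexamer of alpha, beta and gamma chains whose genes lie side by side. In the counted annotation (GRCm38), Fgg spans chr3:83007724-83015049, Fga chr3:83026076-83033627 and Fgb chr3:83040141-83049863, with Fgb on the opposite strand. F7, F10 and Proz, which encode vitamin K-dependent proteins, also lie in tandem, at chr8:13026034-13035809, chr8:13037308-13056676 and chr8:13060908-13075006. The 150 bases before the RefSeq start (GRCm38.p6) of these 6 genes and of F11 and Vkorc1 are printed, the clusters because their genes are compared with each other and F11 and Vkorc1 because they held the forkhead letters. The promoter table held 24 of the 31 members. Capitals mark matches on either strand to motif letters for regulators of liver genes, GTTAAT for HNF1, TTGCNNAA for C/EBP, CAAAGTC for HNF4 and GTAAACA for forkhead proteins, the family of FoxO1.
Fga, chr3:83026003-83026152 (+ strand): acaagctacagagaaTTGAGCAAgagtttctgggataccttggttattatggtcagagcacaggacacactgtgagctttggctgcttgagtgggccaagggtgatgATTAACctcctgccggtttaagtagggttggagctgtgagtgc
Fgb, chr3:83049864-83050013 (− strand): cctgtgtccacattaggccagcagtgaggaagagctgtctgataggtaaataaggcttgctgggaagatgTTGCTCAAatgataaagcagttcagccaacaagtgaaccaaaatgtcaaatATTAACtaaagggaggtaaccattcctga
Fgg, chr3:83007574-83007723 (+ strand): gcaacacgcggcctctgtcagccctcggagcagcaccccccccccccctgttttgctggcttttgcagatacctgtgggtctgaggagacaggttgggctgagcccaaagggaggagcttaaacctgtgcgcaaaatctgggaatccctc
F7, chr8:13025884-13026033 (+ strand): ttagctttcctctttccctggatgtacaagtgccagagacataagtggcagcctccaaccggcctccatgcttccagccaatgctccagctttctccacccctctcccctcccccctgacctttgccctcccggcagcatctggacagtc
F10, chr8:13037158-13037307 (+ strand): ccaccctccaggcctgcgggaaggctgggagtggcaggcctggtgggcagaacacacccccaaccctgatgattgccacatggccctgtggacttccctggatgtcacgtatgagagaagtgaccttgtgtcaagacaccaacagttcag
Proz, chr8:13060758-13060907 (+ strand): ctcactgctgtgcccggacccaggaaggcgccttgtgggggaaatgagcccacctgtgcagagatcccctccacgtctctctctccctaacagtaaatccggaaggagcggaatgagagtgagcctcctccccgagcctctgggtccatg
F11, chr8:45262032-45262181 (− strand): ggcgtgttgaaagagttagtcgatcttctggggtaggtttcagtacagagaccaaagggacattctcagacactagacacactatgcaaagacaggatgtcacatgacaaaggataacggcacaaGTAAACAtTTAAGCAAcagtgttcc
Vkorc1, chr7:127895618-127895767 (− strand): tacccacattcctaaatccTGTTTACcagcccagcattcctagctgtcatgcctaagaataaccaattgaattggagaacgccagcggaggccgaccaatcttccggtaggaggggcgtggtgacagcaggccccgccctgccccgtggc
For 7 of these 8 starts, the bases just after the start occurred in a GENCODE M21 transcript of that gene, Proz being the exception. Where in the transcript they lay was not checked, and the start of Fga lies within the counted gene. Fga and Fgb each held the HNF1 and the C/EBP letters, and Fgg, F7, F10 and Proz held none of the 4 sets of letters in exact form. Among the 24 members, HNF1 letters were in 3 (12.5%), C/EBP letters in 5 (20.8%), HNF4 letters in 0 and forkhead letters in 2 (8.33%), the 2 being F11 and Vkorc1. Among all 32851 promoter windows of that length the shares were 3.71%, 5.46%, 2.25% and 1.8%. A match says only that the letters are present in the window. Variants of these letters were not searched, so a window without a match can still hold a site for the same regulator. The paper reported unchanged FoxO1 expression in primary hepatocytes of MøFoxO1-KO mice, and binding of FoxO1 to these windows was not tested.

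The fibrinogen chains were higher on average in MøFoxO1-KO mice, with 1 mouse apart. Normalized Fgg counts were 27845, 31468, 25696 and 34125 in WT mice and 43893, 51834, 29733 and 51380 in MøFoxO1-KO mice. MøFoxO1-KO replicate 28 lay among the WT mice, and the other MøFoxO1-KO mice lay above all of them. Fgg had a log2 fold change of 0.57 (SE 0.19, edgeR, unadjusted P = 0.0145, Benjamini-Hochberg adjusted P = 0.202). For Fgb, which encodes the beta chain, normalized counts were 32941, 39277, 29003 and 37825 in WT mice and 50064, 54254, 33444 and 52325 in MøFoxO1-KO mice, and replicate 28 again overlapped the WT range. Fgb had a log2 fold change of 0.45 (SE 0.18, edgeR, unadjusted P = 0.0332, Benjamini-Hochberg adjusted P = 0.256). Fga, which encodes the alpha chain, had 30334, 43601, 24740 and 29436 normalized counts in WT mice and 39761, 40130, 24446 and 43687 in MøFoxO1-KO mice. WT replicate 23 had about as many Fga counts as the highest MøFoxO1-KO mouse, and Fga had a log2 fold change of 0.21 (SE 0.23, edgeR, unadjusted P = 0.376, Benjamini-Hochberg adjusted P = 0.686). F13b, which encodes the carrier subunit of the fibrin-crosslinking factor XIII, had a log2 fold change of 0.18 (edgeR, Benjamini-Hochberg adjusted P = 0.548). The 3 chains together held 0.617 ± 0.0589% of counts in WT mice and 0.738 ± 0.137% in MøFoxO1-KO mice (SD, n = 4; exact permutation test, two-sided, P = 0.171).

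Within each mouse, the ratio of neighbouring genes does not depend on scaling, and 8 such ratios, picked with their values known, were compared. The log2 ratio of Fgg to Fga was -0.12, -0.47, 0.05 and 0.21 in WT mice and 0.14, 0.37, 0.28 and 0.23 in MøFoxO1-KO mice. The groups overlapped through WT replicate 25, and the mean ratio was 0.34 higher in MøFoxO1-KO mice (exact permutation test, two-sided, P = 0.0571). The ratio of Fgb to Fga was 0.23 higher (P = 0.0857) and that of Fgg to Fgb 0.11 higher (P = 0.143) by the same exact test. In the chromosome 8 cluster, the log2 ratio of F10 to Proz was 1.08, 0.44, 1.05 and 1.17 in WT mice and 0.97, 1.66, 1.46 and 1.82 in MøFoxO1-KO mice, a mean difference of 0.54 (exact permutation test, two-sided, P = 0.114). F7 over Proz differed by 0.43 (P = 0.171) and F7 over F10 by -0.11 (P = 0.486) in the same exact test. Kng1 over its neighbour Kng2 on chromosome 16 differed by 0.20 (exact permutation test, P = 0.171). Over the 8 ratios, Benjamini-Hochberg adjusted values of the exact permutation test ran from 0.229 to 0.514. The smallest P of that test with 4 mice against 4 is 0.0286, so a ratio that alone separated the groups could not pass. The adjusted values therefore do not decide whether any ratio differed.

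**Figure D3:**
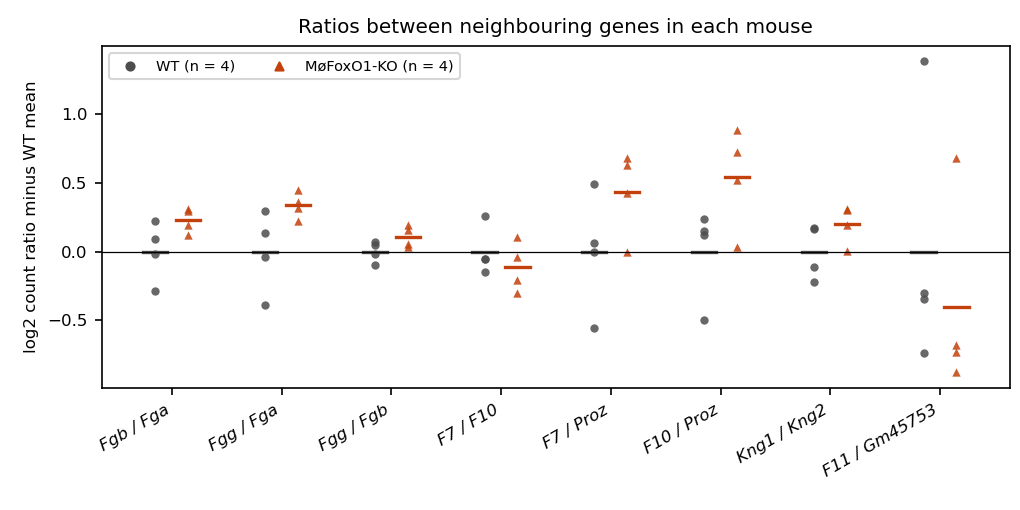
Log2 ratio of the counts of 2 neighbouring genes in each mouse, minus the WT mean of that ratio; circles are WT mice, triangles are MøFoxO1-KO mice and horizontal bars are group means. The groups overlap for all 8 ratios, and F10 over Proz has the greatest difference in means, 0.54.

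Among the factors that start clotting and the common pathway, F10 had the lowest adjusted P of all members. F10 encodes factor X, the protease on which the tissue factor and contact routes converge. Its normalized counts were 6319, 5842, 5073 and 5653 in WT mice and 8321, 9440, 7434 and 9622 in MøFoxO1-KO mice, with no overlap. Means were 5722 ± 516 (SD, n = 4) in WT mice and 8704 ± 1024 (SD, n = 4) in MøFoxO1-KO mice. F10 had a log2 fold change of 0.61 (SE 0.13, edgeR, unadjusted P = 0.000964, Benjamini-Hochberg adjusted P = 0.0993), and in the 17 alternatives its log2 fold change lay between 0.45 and 0.69. DESeq2 gave F10 an adjusted P of 0.00125, in a range of 0.00125 to 0.310 over the alternatives.

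F7 encodes factor VII, the partner of tissue factor. It had normalized counts of 1263, 1247, 1084 and 1500 in WT mice and 1797, 1696, 1770 and 1849 in MøFoxO1-KO mice, again without overlap. F7 had a log2 fold change of 0.48 (SE 0.12, edgeR, unadjusted P = 0.00241, Benjamini-Hochberg adjusted P = 0.122). The adjusted P of F7 ranged from 0.0123 with DESeq2 to 0.314 over the alternatives. F2, which encodes prothrombin, had 31156, 29443, 23730 and 29199 normalized counts in WT mice and 35956, 35431, 31876 and 36359 in MøFoxO1-KO mice. All MøFoxO1-KO mice lay above the highest WT mouse, replicate 22, by a narrow margin, and F2 had a log2 fold change of 0.30 (SE 0.13, edgeR, unadjusted P = 0.0494, Benjamini-Hochberg adjusted P = 0.297).

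F5, which encodes the cofactor of factor Xa, had 6093, 8699, 5837 and 6174 normalized counts in WT mice and 7592, 7287, 5641 and 6371 in MøFoxO1-KO mice. WT replicate 23 lay far above the other WT mice, and the log2 fold change was 0.00 (SE 0.16, edgeR, Benjamini-Hochberg adjusted P = 0.992). F3, which encodes tissue factor, was low at 54 to 106 counts per mouse, with a log2 fold change of 0.23 (edgeR, Benjamini-Hochberg adjusted P = 0.659). The median log2 fold change over these 5 genes was 0.30, and all 5 were above 0, F5 by less than 0.01 and below 0 with total library size.

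In the contact and intrinsic route, Kng1 and F11 had the lowest P values. Kng1 encodes high-molecular-weight kininogen, the cofactor of contact activation and source of bradykinin. Its normalized counts were 28160, 26904, 27495 and 29652 in WT mice, a narrow range, and 36119, 41642, 36922 and 43592 in MøFoxO1-KO mice. Every MøFoxO1-KO mouse lay above every WT mouse, and Kng1 had a log2 fold change of 0.50 (SE 0.13, edgeR, unadjusted P = 0.00269, Benjamini-Hochberg adjusted P = 0.125). With DESeq2 its adjusted P was 0.000746, the lowest of any member in any setting, in a range of 0.000746 to 0.346 over the alternatives. Kng2, the neighbouring kininogen gene, had a log2 fold change of 0.29 (SE 0.14, edgeR, unadjusted P = 0.0695, Benjamini-Hochberg adjusted P = 0.345). Paralogous kininogen genes can share reads, and how reads that match several genes were counted is not given in the sources used here.

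F11 encodes factor XI, which activates factor IX. In normalized counts it stood at 333, 581, 359 and 385 in WT mice and 1090, 812, 611 and 579.9 in MøFoxO1-KO mice. WT replicate 23 and MøFoxO1-KO replicate 29 met at nearly the same value, and otherwise the groups were separate. F11 had the highest positive log2 fold change of the liver-made members, 0.90 (SE 0.24, edgeR, unadjusted P = 0.00335, Benjamini-Hochberg adjusted P = 0.131), and leaving out each mouse in turn gave 0.68 to 1.11. DESeq2 gave F11 an adjusted P of 0.0175, in a range of 0.0175 to 0.337 over the alternatives.

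F12, F9 and F8 did not pass any of these tests. F12, which encodes the factor that starts the contact route, had a log2 fold change of 0.05, F9, the gene mutated in haemophilia B, -0.03, and F8, the gene mutated in haemophilia A, -0.20, with unadjusted edgeR P values of 0.805, 0.884 and 0.452. Vwf, which encodes the carrier of factor VIII, had 147, 108, 102 and 120.5 normalized counts in WT mice and 90.1, 118, 258 and 82.8 in MøFoxO1-KO mice. MøFoxO1-KO replicate 28 alone placed its mean above that of WT mice, since the log2 fold change was 0.21 with that mouse and -0.29 without it.

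Klkb1, which encodes plasma prekallikrein, was the member without a row under its GENCODE M21 identifier. Its gene (chr8:45266689-45294859, − strand) contains the whole of the counted gene Gm45753 (chr8:45269442-45294859), whose 2496 exon bases are 47.6% of the exon bases of Klkb1. The row of the neighbouring gene Cyp4v3 (chr8:45269671-45333216, − strand) shares 2267 bases with Klkb1, all within the span of Gm45753. Cyp4v3 had 4590 to 8633 counts per mouse and lies on the same strand. How reads that match both rows were counted is not given in the sources used here, so the counts of Gm45753 are uncertain to that extent. Gm45753 had 516, 258, 547 and 736 counts in WT mice and 807, 1289, 1176 and 1086 in MøFoxO1-KO mice. The groups did not overlap, and the log2 fold change was 1.23 (SE 0.30, edgeR, unadjusted P = 0.00198, Benjamini-Hochberg adjusted P = 0.119). Whether the row of Gm45753 counts Klkb1 under an earlier identifier was not settled here, so it was not counted as a member and no value is given for Klkb1.

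Of the anticoagulants, Proc had the lowest P. Proc encodes protein C, which in its active form inactivates factors Va and VIIIa. Normalized Proc counts were 11692, 8308, 9345 and 11261 in WT mice and 14053, 15396, 14459 and 15034 in MøFoxO1-KO mice. The MøFoxO1-KO mice lay close together and above every WT mouse, and Proc had a log2 fold change of 0.54 (SE 0.14, edgeR, unadjusted P = 0.00316, Benjamini-Hochberg adjusted P = 0.131). DESeq2 gave Proc an adjusted P of 0.00683, in a range of 0.00683 to 0.346 over the alternatives.

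Serpinc1 encodes antithrombin, the main inhibitor of thrombin and factor Xa. Normalized Serpinc1 counts were 34152, 32146, 30339 and 35350 in WT mice and 36327, 43655, 35401 and 40843 in MøFoxO1-KO mice. The groups were separate by the small gap between WT replicate 25 and MøFoxO1-KO replicate 28, and Serpinc1 had a log2 fold change of 0.24 (SE 0.13, edgeR, unadjusted P = 0.0928, Benjamini-Hochberg adjusted P = 0.385). Of its exon bases 34.4% are shared with Zbtb37 on the opposite strand, a gene with 1248 counts beside 285767 of Serpinc1 over the 8 mice, and whether reads were counted by strand is not given in the sources used here. Serpind1, which encodes heparin cofactor II, had a log2 fold change of 0.32 (SE 0.16, edgeR, unadjusted P = 0.0743, Benjamini-Hochberg adjusted P = 0.353).

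Pros1 and Proz, which encode the vitamin K-dependent cofactors protein S and protein Z, overlapped between groups. Normalized counts of Pros1 were 1065 ± 149 (SD, n = 4) in WT mice and 960.4 ± 138 (SD, n = 4) in MøFoxO1-KO mice, a log2 fold change of -0.15 (edgeR, Benjamini-Hochberg adjusted P = 0.646). Proz had a log2 fold change of 0.04 (edgeR, Benjamini-Hochberg adjusted P = 0.94), although it lies next to F10. Tfpi, which encodes the inhibitor of the tissue factor complex, and Thbd, which encodes the thrombomodulin that activates protein C, had log2 fold changes of -0.27 and 0.27, with standard errors of 0.33 and 0.28. Procr, which encodes the endothelial protein C receptor, had 13.1, 8.85, 22.2 and 28.9 normalized counts in WT mice and 13.4, 45.4, 20.9 and 67.2 in MøFoxO1-KO mice. The log2 fold change of Procr was 0.99 (SE 0.54), and 2 of the MøFoxO1-KO mice lay within the WT range (edgeR, unadjusted P = 0.0971).

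Of the 5 fibrinolysis genes, 3 had a log2 fold change above 0, and the 2 below 0, Plat and Plau, had low counts. Plg encodes plasminogen, the precursor of plasmin, and had 29373, 38924, 23955 and 29404 normalized counts in WT mice and 37920, 37749, 29125 and 34678 in MøFoxO1-KO mice. Its log2 fold change was 0.20 (edgeR, Benjamini-Hochberg adjusted P = 0.607). The highest Plg value of all 8 mice was that of WT replicate 23. Of the inhibitors, Serpinf2 encodes alpha-2-antiplasmin, which blocks plasmin. Its normalized counts were 7998, 10797, 7027 and 7981 in WT mice and 13961, 12432, 8030 and 11322 in MøFoxO1-KO mice. WT replicate 23 and MøFoxO1-KO replicate 28 crossed between the groups, and Serpinf2 had a log2 fold change of 0.44 (SE 0.20, edgeR, unadjusted P = 0.0492, Benjamini-Hochberg adjusted P = 0.297). Cpb2 encodes the carboxypeptidase TAFI, which removes the fibrin residues that plasminogen binds. Normalized Cpb2 counts were 2974, 4042, 2466 and 3929 in WT mice and 5937, 5937, 3030 and 5248 in MøFoxO1-KO mice, where replicate 28 again lay among WT mice, and Cpb2 had a log2 fold change of 0.59 (SE 0.24, edgeR, unadjusted P = 0.0316, Benjamini-Hochberg adjusted P = 0.253).

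The activators were low, and Plat passed the filter through its WT counts, so its values are given as a description only. Plat, which encodes tissue plasminogen activator, had 19, 12, 26 and 27 counts in WT mice and 6, 0, 5 and 12 in MøFoxO1-KO mice. The highest MøFoxO1-KO mouse, replicate 29, met the lowest WT mouse, replicate 23, and the others were separate. For replicate 27 a count of 0 allows up to 3 counts, or 3.58 normalized counts, counting error only. Plat had a log2 fold change of -1.72 (SE 0.65, edgeR, unadjusted P = 0.0247, Benjamini-Hochberg adjusted P = 0.234), the most negative value of any member, and leaving out each mouse in turn gave -2.42 to -1.33. Its unadjusted P was not under 0.05 without WT replicate 24 or 25 or MøFoxO1-KO replicate 26 or 28. Plau, which encodes urokinase, had a log2 fold change of -0.15 (SE 0.42, edgeR, Benjamini-Hochberg adjusted P = 0.888).

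Vitamin K-dependent factors need gamma-carboxylation in the liver, which Ggcx carries out and Vkorc1 sustains by recycling vitamin K. Vkorc1 had 234, 159, 257 and 255 normalized counts in WT mice and 285, 445, 322 and 349 in MøFoxO1-KO mice. The groups were separate, and Vkorc1 had a log2 fold change of 0.63 (SE 0.19, edgeR, unadjusted P = 0.00744, Benjamini-Hochberg adjusted P = 0.165). Of its exon bases 52.3% are shared with Gm21974 on the same strand, which had 1 count over the 8 mice. Ggcx had a log2 fold change of -0.27 (edgeR, Benjamini-Hochberg adjusted P = 0.568). Among the 7 substrates F2, F7, F9, F10, Proc, Pros1 and Proz, the median log2 fold change was 0.30, with 5 above and 2 below 0, and 4 of the 7 had an unadjusted P under 0.05 with higher means, beside 8.65% of tested genes.

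**Figure D4:**
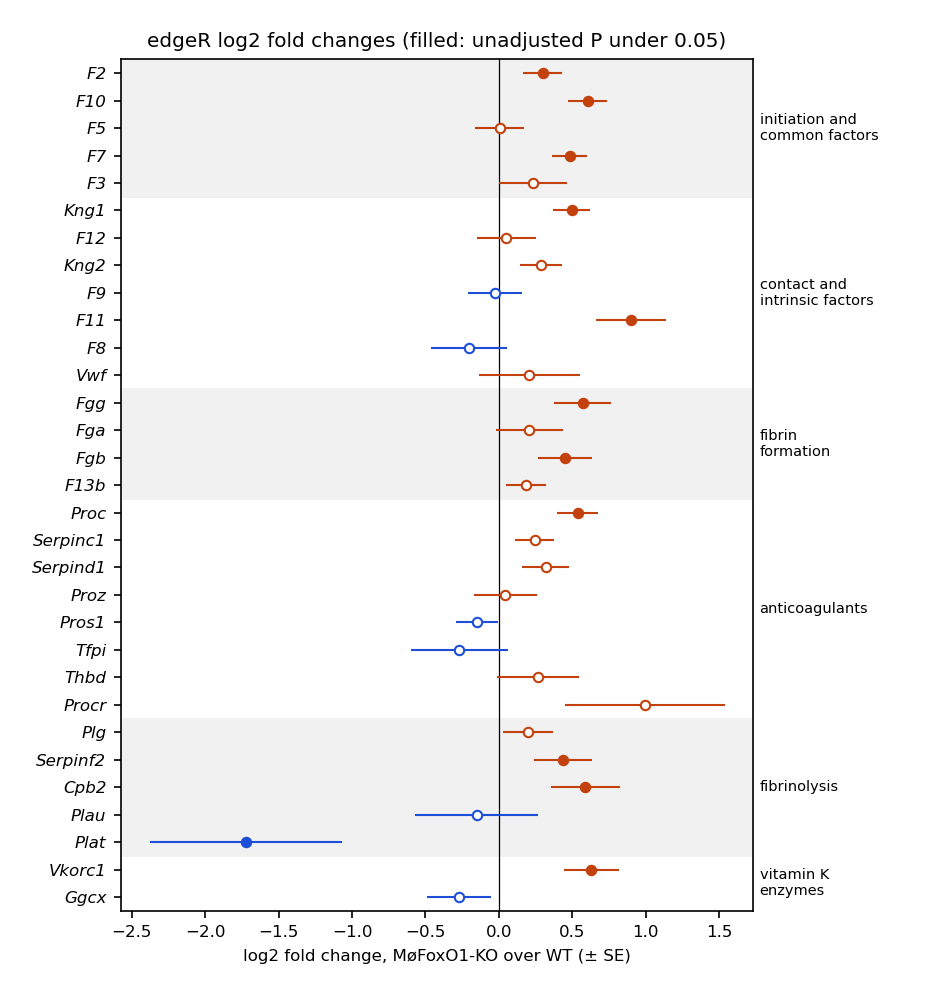
Log2 fold change of each member, MøFoxO1-KO over WT, with its standard error (edgeR, 4 mice per group), in order of role; filled points have an unadjusted P under 0.05. The filled points are the 11 members on the right and Plat on the left, and no member passed Benjamini-Hochberg adjustment at 0.05.

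By usual source, 21 tested members are made by hepatocytes and 8 by endothelial or other cells. The hepatocyte group had a median log2 fold change of 0.30, with 19 above and 2 below 0, and the 2 below were F9 and Pros1. The endothelial or other group had a median of 0.03, with 4 above and 4 below 0. The difference between the groups of members was not tested. Normalized counts summed over the hepatocyte members were 239310 to 308508 in WT mice and 288927 to 385159 in MøFoxO1-KO mice. WT replicate 24 and MøFoxO1-KO replicate 28 were lowest in their groups in that sum, and were lowest in 18 and 15 of the 31 members.

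Most genes that mark hepatocytes also had higher means in MøFoxO1-KO mice. In log2 fold change, Apoa1 at 1.07 and Serpina1a at 0.90 were highest, and Apob at -0.22 and Hnf4a at -0.32 were below 0. Of 12 hepatocyte markers, 11 were tested, with a median log2 fold change of 0.30, 9 above and 2 below 0. Their summed normalized counts were 1311192 to 1742743 in WT mice and 1590083 to 2242188 in MøFoxO1-KO mice, and WT replicate 24 and MøFoxO1-KO replicate 28 were again the lowest. The summed counts of the 21 hepatocyte members came to 18.2, 17.7, 18.3 and 18.2% of the summed marker counts in WT mice and to 19.2, 17.2, 18.2 and 18.5% in MøFoxO1-KO mice. Relative to the markers of the same mouse, the members were thus at 18.1 ± 0.269% in WT mice and 18.3 ± 0.853% in MøFoxO1-KO mice (SD, n = 4; exact permutation test, two-sided, P = 0.8).

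Taken gene by gene on this ratio, 9 of the 21 hepatocyte members were higher and 12 lower in MøFoxO1-KO mice, with a median log2 difference of -0.03. F10 was the member whose ratio was higher in every MøFoxO1-KO mouse, at 0.375 ± 0.0357% in WT mice and 0.450 ± 0.0227% in MøFoxO1-KO mice (SD, n = 4; exact permutation test, two-sided, P = 0.0286). Pros1 was the member whose ratio was lower in every one, at 0.0694 ± 0.00452% and 0.0497 ± 0.00589% (SD, n = 4; exact permutation test, two-sided, P = 0.0286). These are 2 of 21 ratios so compared, at the smallest P the design allows. The share of all tested genes that separate on this ratio was not computed, and on normalized counts it was 9.71%. Alb held 48.5 to 64.0% of the marker counts, and the markers themselves included Apoa1, with a log2 fold change of 1.07. Without Alb in the sum the median was -0.20, with 5 members higher and 16 lower. F10 then no longer separated the groups, and Serpinc1, whose normalized counts were higher in every MøFoxO1-KO mouse, joined Pros1 as lower in every one. Without Apoa1 the median was 0.05.

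Markers of other cell types were checked beside the members they could supply. All 12 endothelial markers were tested, with a median log2 fold change of 0.24 and 12 above 0, and their summed normalized counts were 2706 to 7100 in WT mice and 5066 to 8389 in MøFoxO1-KO mice. The lowest sum was that of WT replicate 23, in which F8, Tfpi, Thbd, Procr, Plau and Plat were also lowest among WT mice. Vwf was lowest in WT replicate 24 and F3 in WT replicate 22, and the part of the endothelial markers in these values was not tested. The 14 macrophage markers had a median of 0.95, with 13 above 0 and Marco highest at 5.18. Lyz2, whose promoter drives Cre in the MøFoxO1-KO mice alone, was below 0 at -0.77, and its groups overlapped. Their summed counts were 4393 to 7737 in WT mice and 7656, 14650, 5171 and 22500 in MøFoxO1-KO mice, which overlapped. Medians were -0.12 for 12 stellate or fibroblast markers, -0.23 for 5 tested cholangiocyte markers, 0.47 for 4 tested of 8 platelet markers and -0.66 for 5 erythroid markers. The platelet markers summed to 75.7 to 219 normalized counts in WT mice and 167 to 296 in MøFoxO1-KO mice.

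The rest of the haemostatic system was read from a separate list of 30 genes, of which 23 were tested, 13 above and 10 below 0. Anxa5, which encodes the phospholipid-binding annexin A5, was the gene of this list that was called, beside 0.188% of all tested genes. It fell by 1.93 on the log2 scale (SE 0.25, edgeR, Benjamini-Hochberg adjusted P = 0.0171), from 1517 ± 511 to 399 ± 62.5 normalized counts (SD, n = 4). At an unadjusted edgeR P under 0.05, 5 genes of the list were higher and 3 lower, beside 8.65% and 8.06% of all tested genes. Of these, Anxa5 alone had an adjusted P under 0.05 in edgeR, beside 0.294% of tested genes. Over the alternatives the adjusted P of Anxa5 reached 0.0919. With DESeq2, Gas6 (adjusted P = 0.00441), Vtn (0.00483) and Serpine2 (0.0112) also passed 0.05, beside 4.02% of its tested genes. The higher ones were Serpine2, a protease inhibitor, at a log2 fold change of 1.68, Fgl1 at 1.33, Vtn, which encodes vitronectin, at 0.62, Pdia3 at 0.39 and Serpina10, which encodes the protein Z-dependent inhibitor, at 0.37. The lower ones were Anxa5, Anxa2, which binds plasminogen activator on cell surfaces, at -0.76, and Gas6, a vitamin K-dependent growth factor, at -0.69. Serpine2, Fgl1, Serpina10 and Anxa2 overlapped between groups. Vtn and Pdia3 were separate and higher, beside 5.0% of tested genes, and Anxa5 and Gas6 separate and lower, beside 4.71%. Fgl1 ranged from 2909 to 19460 normalized counts among MøFoxO1-KO mice.

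Regulators of liver genes were a list of 20, all tested, with a median log2 fold change of -0.05. Foxa3, a forkhead factor of hepatocytes, was the gene above 0 with an unadjusted P under 0.05, at 0.37 (edgeR, Benjamini-Hochberg adjusted P = 0.282). Ppargc1a, a coactivator induced by fasting, was the gene below 0, at -0.53 (edgeR, Benjamini-Hochberg adjusted P = 0.243). Over all tested genes, 8.65% were higher and 8.06% lower at that unadjusted P.

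Scaling moved the level of the whole set. With total library size in place of TMM, the median of all tested genes was -0.17 and that of the members 0.09, and 7 members were higher and 2 lower at an unadjusted P under 0.05, beside 3.33% of genes higher and 18.7% lower. Separate groups were found in 4 members, beside 13.6% of genes. F10, Proc and Kng1 still lay higher without overlap, beside 1.77% of genes, and Pros1 lay lower, beside 11.9%. With an offset for gene length and GC content, 11 members passed the unadjusted P, 10 of them higher, beside 14.5% of genes (7.46% higher).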

How the data were processed

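Whole liver RNA of 8 mice, 4 per genotype, was analysed from 1 deposited table of read counts per gene. Per the labels, the authors used STAR, featureCounts and mm10, without versions. The deposited counts are not normalized, and the strand setting is not given in the sources used here. Each count column held 1 mouse with its genotype in the labels. Symbols and overlaps came from GENCODE M21, in which 38860 of 46005 matched genes had the same start and end as in the table.

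Genes were filtered with filterByExpr (minimum count 10, minimum total 15), scaled by TMM and tested in edgeR 4.0.16 (R 4.3.3, quasi-likelihood F test), with Benjamini-Hochberg adjustment over 13278 genes and no covariates. The common biological coefficient of variation was 0.256. FPKM were computed from TMM-scaled counts and summed exon length. Exact two-sided permutation tests were run in scipy 1.17.1. Promoters came from RefSeq (GRCm38.p6). The alternatives were DESeq2 1.42.0, limma-voom (limma 3.58.1), other normalizations and filters, the robust fit, a length and GC offset and each mouse left out. The methods were also run on simulated counts with log2 changes larger than that of any member, so that run does not cover changes of the members' size. Python 3.11.15, numpy 2.4.6, pandas 2.3.3 and matplotlib 3.10.9 served for tables and plots.

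The members and gene lists were chosen with earlier results of these data known. All 32 symbols are named by role, with values per mouse for members with an unadjusted P under 0.05 or separate groups and for some further members. Genes of the haemostasis and regulator lists are named at an unadjusted P under 0.05, and markers are given as lists. Alb, Apoa1, Serpina1a, Apob, Hnf4a, Lyz2 and Marco were named after their values were seen.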

Additional observations from a re-analysis of the deposited data

Results flagged for a closer look

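Of the 62 groups of 4 mice screened, 1 held a mouse far from the others. F5 in WT replicate 23 had 8699 normalized counts, and its gap to the next WT mouse was 0.882 of the range of the group, above Dixon's 95% critical value for 4 values. Chance flags about 1 in 20 groups. WT replicate 23 was also the highest WT mouse in 13 of the 31 members and the lowest in 11, and without it the log2 fold change of F5 was 0.16 in place of 0.00. The cause was not tested.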

How the results depend on the processing

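Each of the 31 log2 fold changes was recomputed under up to 17 alternatives. Of the 525 values, 495 kept their direction and side of the threshold, 5 passed it with DESeq2 and 25 changed sign, in 7 members with small changes. DESeq2 gave 5 members an adjusted P under 0.05, and edgeR with adjusted P under 0.1 and no fold limit gave 1, F10, beside 1.04% of tested genes. With 1 mouse left out, 7 to 14 members had an unadjusted P under 0.05 (7 without WT replicate 24), beside 10.7 to 16.9% of tested genes, and 7 to 13 had separate groups, beside 11.3 to 16.7% (11 when WT replicate 23 was left out, 13 when MøFoxO1-KO replicate 28 was). With total library size only, 4 members had separate groups, beside 13.6% of genes, and the median of the members was 0.0861, beside -0.17 over all genes. That scaling also gave log2 fold changes of -0.15 for F5, -0.10 for F12 and -0.10 for Proz. The offset gave -0.0582 for F12 and -0.0109 for Proz, no filter gave -0.0104 for F5 and upper-quartile scaling gave 0.0015 for F9. Leaving out mice gave -0.0608 to 0.16 for F5, -0.38 to 0.0181 for F8, -0.15 to 0.14 for F9, -0.11 to 0.15 for F12, -0.13 to 0.26 for Proz, -0.29 to 0.38 for Vwf and -0.44 to 0.0661 for Plau. The causes were not tested. The median log2 ratio to hepatocyte markers, an alternative chosen after seeing the data, was -0.20 without Alb and 0.05 without Apoa1 in the sum, and -0.06 to 0.03 with each mouse left out. Requiring 10 counts in every mouse left 29 members, without Plat and Procr, and separate groups could not be computed under the offset. No paired analysis was possible because the groups share no replicate numbers. Total counts limit what can be seen in Plat and Procr, with at most 60 counts in any mouse.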
